A study of Mus musculus with 24 samples.

Results

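The UDP-glucuronosyltransferases are enzymes of the endoplasmic reticulum that join a sugar, usually glucuronic acid taken from UDP-glucuronic acid, to bilirubin, steroids, bile acids, drugs and other fat-soluble molecules, so that these can leave the body in bile or urine. In the mouse they form the Ugt1a, Ugt2a, Ugt2b, Ugt3a and Ugt8a groups, and the liver is a main site of their action. The Ugt1a enzymes come from 1 locus in which each enzyme has its own first exon joined to a shared set of further exons, whereas the Ugt2 enzymes come from separate genes in a cluster. Described here are 10 of these genes, chosen by name from the table of liver mRNA: Ugt1a1, Ugt2a3, Ugt2b1, Ugt2b5, Ugt2b34, Ugt2b35, Ugt2b36, Ugt2b37, Ugt2b38 and Ugt3a1. All 10 were found once among the 54432 genes of the table, which lists 22 UDP-glucuronosyltransferase genes in all, and all 10 had a mean of at least 1 normalized count, as did 19810 genes.

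The libraries were poly(A)-selected RNA-seq of whole liver from 24 male C57BL/6 mice on chow, with 6 mice per group in 2 cohorts of 3 per group. The groups were mice with floxed Trib1 (Trib1-KO), mice with floxed Cebpa (Cebpa-KO), mice with both genes floxed (DKO) and wild type mice (WT). Every mouse, WT included, was injected intraperitoneally at 20 to 21 weeks of age with an adeno-associated virus that carries Cre recombinase, the enzyme that cuts out floxed DNA, and was killed 4 weeks later after a 4 h fast. The promoter that drives Cre is not given in the sources used here. Cebpa encodes C/EBPα, a transcription factor of hepatocytes, and Trib1 encodes a pseudokinase that marks C/EBPα for breakdown by binding the ubiquitin ligase COP1.

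The targeted genes were read first. Cebpa stood at 82.2 ± 17.5 normalized counts in Cebpa-KO and 82.4 ± 18.1 in DKO, against 6019 ± 1057 in WT (SD, n = 6 each). Trib1 went against its label, at 4237 ± 358 normalized counts in the libraries labelled Trib1-KO against 1224 ± 204 in WT, and stood at 732 ± 259 in DKO against 333 ± 158 in Cebpa-KO. The table holds 1 value per gene and cannot show whether the floxed part of Trib1 was lost, so both groups with floxed Trib1 are named by their labels, and every direction drawn from them rests on the label. Cebpa itself was also lower under the Trib1-KO label, at 2668 ± 359 normalized counts. Totals were 23385895 to 27190701 normalized counts per library, with 19831 to 21189 genes above 0.

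Cell type markers moved with the groups. By limma at an adjusted p under 0.05, 9 of 11 hepatocyte markers were called lower and none higher in the libraries labelled Trib1-KO than in WT, and 9 of 12 Kupffer cell and macrophage markers were called higher and none lower. The summed macrophage markers ran from 17334 to 20859 normalized counts in the libraries labelled Trib1-KO, against 9381 to 16810 in WT. Of 6 kidney tubule markers, all were at 0 in WT and the sum reached at most 6.72 normalized counts in any library. In bulk liver, fewer cells of a type and less RNA per cell cannot be told apart.

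Of the 10 genes, 8 lie in 1 cluster on chromosome 5 that spans 534 kb in GRCm38, in the order Ugt2b34, Ugt2b1, Ugt2b35, Ugt2b36, Ugt2b5, Ugt2b37, Ugt2a3 and Ugt2b38. Each of them has 6 exons in its longest coding GENCODE transcript, and all but Ugt2b35 are read from the minus strand. Ugt2b34 lies at one end (chr5:86889767-86906937), and Ugt2b38 lies at the other end (chr5:87409942-87424203). Ugt1a1 lies at the far end of the Ugt1a locus on the plus strand (chr1:88211959-88218997, 5 exons), and Ugt3a1 on the plus strand of chromosome 15 (chr15:9276888-9315032, 7 exons). The clearest difference between 2 near neighbours below is between Ugt2b38 and Ugt2b37, so the stretch before their starts is shown beside that of 3 more genes of the cluster and of Ugt3a1.

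The windows are 61 bases of RefSeq promoter sequence (GRCm38.p6), given 5′ to 3′ on the strand of the gene. Capitals mark a match to GTTA and TAAC with any 5 bases between them, a palindromic pattern chosen after the sequences were seen. Positions are chr5:87424231-87424291 for Ugt2b38, chr5:87254830-87254890 for Ugt2b37, chr5:87140365-87140425 for Ugt2b5, chr5:87092583-87092643 for Ugt2b36, all on the minus strand, and chr5:87000766-87000826 for Ugt2b35 and chr15:9279675-9279735 for Ugt3a1, both on the plus strand.
Ugt2b38: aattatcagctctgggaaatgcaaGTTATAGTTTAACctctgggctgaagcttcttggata
Ugt2b37: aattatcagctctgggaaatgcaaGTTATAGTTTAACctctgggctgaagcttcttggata
Ugt2b5: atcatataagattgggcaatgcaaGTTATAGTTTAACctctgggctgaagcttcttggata
Ugt2b36: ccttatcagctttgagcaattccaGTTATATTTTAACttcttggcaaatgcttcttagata
Ugt2b35: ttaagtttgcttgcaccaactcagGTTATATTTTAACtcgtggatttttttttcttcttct
Ugt3a1: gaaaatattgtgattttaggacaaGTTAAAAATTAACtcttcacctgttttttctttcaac

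The windows of Ugt2b38 and Ugt2b37 were identical over all 61 bases, and that of Ugt2b5 differed from them at 11 bases and that of Ugt2b36 at 14. The windows were cut round the pattern. Over the 250 bases before the start, the aligned sequence of Ugt2b38 was 84.85% identical to that of Ugt2b37 and 81.54% to that of Ugt2b5. Over the 100 bases before the start the values were 73.68% and 80.77%. Gaps, those at the ends included, counted as differences in these percentages. The pattern began at -78 from the start in Ugt2b37, at -64 in Ugt2b38 and at -61 in Ugt2b5. The percentages therefore also depend on where the starts are placed, and they do not rank the likeness of the sequences. From 250 bases before to 50 after the start, 8 of the 10 genes held this pattern, all but Ugt1a1 and Ugt2a3, against 0.332% of 32851 promoters of the same length (109 promoters). The pattern reads the same on both strands. The core of C/EBP sites, TTGC and AA with any 2 bases between them, searched on both strands, was in 4 of the 10 genes, Ugt2b1, Ugt2b5, Ugt2b36 and Ugt2a3, against 10.8% of all promoters. Neighbouring members are copies of each other and are not independent cases, and a match is a description of letters, not of binding. The RefSeq start of Ugt3a1 lies inside the GENCODE gene, so its window belongs to the RefSeq start.

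In WT liver, levels per kb of transcript ran over a wide range. Ugt2b5 was highest at 13069 ± 1036 normalized counts per kb, followed by Ugt2b36 at 7600 ± 443 and Ugt1a1 at 6033 ± 805 (SD, n = 6). Ugt2b1 stood at 5017 ± 1003, Ugt2b34 at 3598 ± 464, Ugt2a3 at 3011 ± 389, Ugt2b35 at 1684 ± 309 and Ugt3a1 at 1108 ± 236 normalized counts per kb. The last places were held by Ugt2b38 at 206 ± 72.3 and Ugt2b37 at 28.3 ± 19.5 normalized counts per kb. Between neighbours in this order, the WT ranges of Ugt2b36 and Ugt1a1 met (7116 to 8410 against 5065 to 7123 per kb), as did those of Ugt1a1 and Ugt2b1, of Ugt2b34 and Ugt2a3, and of Ugt2b35 and Ugt3a1. Within a library, Ugt2b36 was nevertheless above Ugt1a1 and Ugt2b35 above Ugt3a1 in 6 of 6 WT libraries, and Ugt1a1 was above Ugt2b1 and Ugt2b34 above Ugt2a3 in 5 of 6. The Ugt2b1 and Ugt2b34 ranges did not meet (4185 to 6896 against 2743 to 4155 per kb), nor did those of the remaining neighbours in the order. In the libraries labelled Trib1-KO the order changed at 2 points: Ugt1a1 (7934 ± 692) stood above Ugt2b36 (4520 ± 269), and Ugt2b37 (30.8 ± 12.4) above Ugt2b38 (5.92 ± 3.91 normalized counts per kb).

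**Figure D1:**
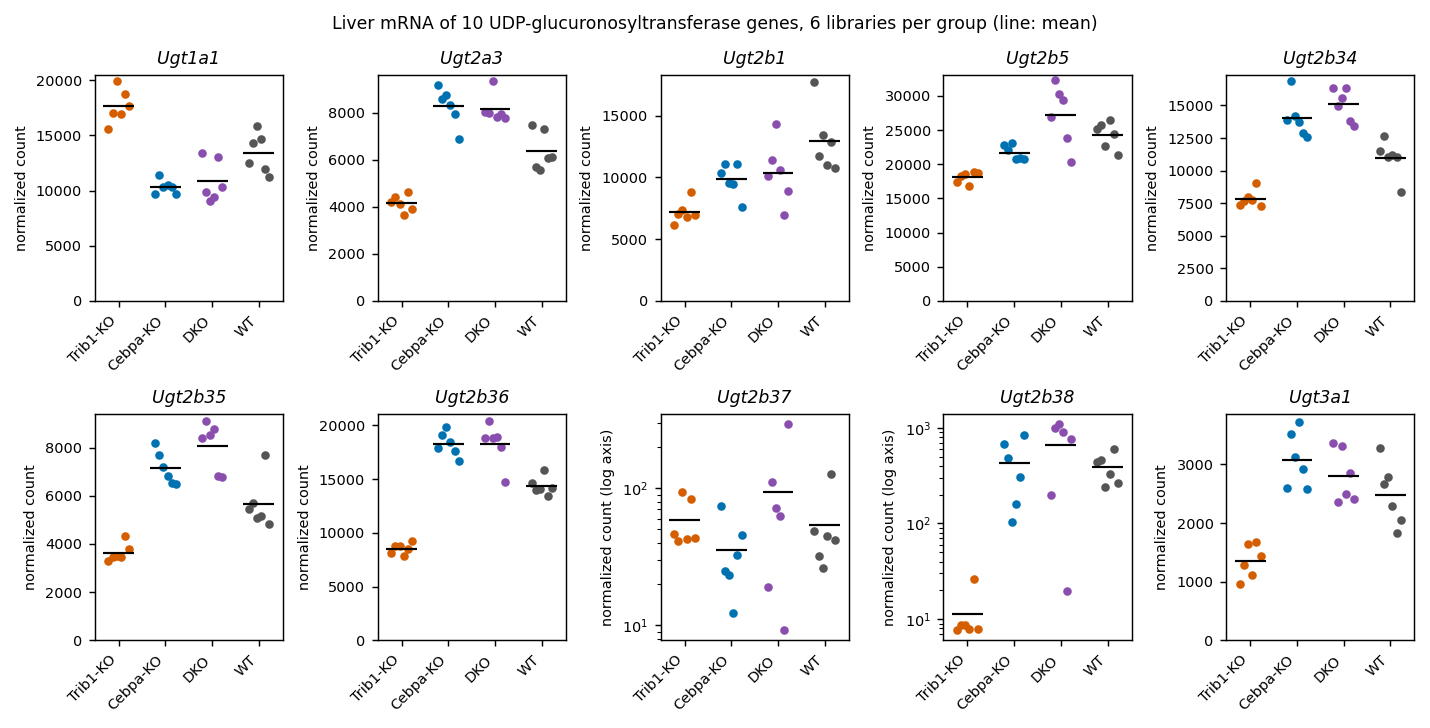
Normalized counts of the 10 genes in each of 6 libraries per group, with Trib1-KO, Cebpa-KO, DKO and WT from left to right and a line at the mean; the axis is logarithmic for Ugt2b37 and Ugt2b38 and starts at 0 for the other 8. Ugt2b38 lay at 7.71 to 26.3 under the Trib1-KO label and at 242 to 600 in WT, and Ugt1a1 alone of the 10 had its highest mean in the libraries labelled Trib1-KO.

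The first comparison set the libraries labelled Trib1-KO against WT; Cebpa was floxed in neither. Of the 10 genes, 8 fell and 1 rose (limma, log2 of the value plus 1, adjusted p under 0.05 over all genes tested). In the same comparison 10.9% of all genes tested were called lower and 11.8% higher, 22.7% in either direction. The median log2 difference of the 10 genes was -0.62, against 0.0077 over all genes tested. For 7 of the 8 that fell, every library labelled Trib1-KO lay below every WT library, as was so for 5.71% of all genes tested. The summed markers of hepatocytes in the same libraries ran from 1036900 to 1156910 normalized counts, against 2255220 to 3047710 in WT. Alb, the largest part of that sum, stood at 356731 ± 57778 against 1451670 ± 277014 in WT (SD, n = 6 each). Hnf4a stood at 15342 ± 988 against 15640 ± 2340 in WT. The summed markers of cholangiocytes ran from 1003 to 1283, against 1468 to 2053 in WT, with 3 of 8 called lower and none higher. The part of these markers in the result was not tested.

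Ugt2b38 fell most. This gene is known to be more abundant in the livers of male than of female mice. The libraries labelled Trib1-KO had 7.71, 8.76, 8.67, 7.85, 26.3 and 7.96 normalized counts, against 436, 464, 242, 329, 600 and 264 in WT. All 6 lay far below the lowest WT library, with library D2 at 26.3 apart from the other 5. The log2 difference was -5.07 ± 0.71 (limma adjusted p = 6.3e-06), and the mean in the libraries labelled Trib1-KO was 0.0288 of the WT mean.

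Ugt2b37, which shares the promoter window of Ugt2b38, was the 1 gene of the 10 not called. Its values were 41.4, 44.7 and 93.4 normalized counts (lowest, median and highest) in the libraries labelled Trib1-KO, against 26.3, 43.6 and 127 in WT. The groups overlapped throughout, and the log2 difference was 0.24 ± 0.58 with a 95% interval from -0.95 to 1.42 (limma adjusted p = 0.83). That interval does not reach the difference of Ugt2b38.

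Reads of these genes are hard to tell apart. The coding sequence of Ugt2b38 is 97.0% identical to that of Ugt2b5 and 94.1% to that of Ugt2b37. Of the 31-base words of its transcript, 47.1% occur in no GENCODE transcript of another gene. The values of Ugt2b38, Ugt2b37 and Ugt2b5 are therefore uncertain where the counting had to split reads between them. Ugt2b5 stood so high that Ugt2b38 came to 0.0426 to 0.139% of it in the libraries labelled Trib1-KO, against 1.07 to 2.45% in WT. The sum of the 3 genes averaged 18175 ± 855 normalized counts in those labelled Trib1-KO and 24726 ± 2003 in WT (SD, n = 6 each), with ranges that did not meet (16818 to 19018 against 21621 to 26790). Ugt2b5 alone averaged 18105 ± 838 and 24283 ± 1924, nearly all of the sum. The sum therefore restates the fall of Ugt2b5 and cannot show how reads were split between the 3 genes.

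The abundant Ugt2b genes fell less. These enzymes conjugate steroids, bile acids and drugs. Ugt2b36 had 7811, 8606 and 9266 normalized counts (lowest, median, highest) in the libraries labelled Trib1-KO, against 13436, 14106 and 15878 in WT. The groups were far apart, with a log2 difference of -0.75 ± 0.07 and the smallest adjusted p of the 10 genes (limma adjusted p = 8.5e-09).

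Ugt2b5, the most abundant of the 10 per kb, had 16767, 18428 and 18909 normalized counts in the libraries labelled Trib1-KO, against 21314, 24803 and 26416 in WT. The groups did not overlap, and the difference was the smallest among the genes that fell, -0.42 ± 0.09 on the log2 scale (limma adjusted p = 0.00067). Ugt2b34 had 7298, 7705 and 9035 normalized counts in the libraries labelled Trib1-KO, against 8369, 11136 and 12678 in WT, and was the 1 gene that fell with overlapping groups (log2 difference -0.48 ± 0.09, limma adjusted p = 0.00018). Both calls depended on the scaling. When each library was scaled by its total over all genes but those of the major urinary proteins (the Mup-free scaling), the median of all genes tested moved to 0.24 in this comparison, 5180 genes were called higher and 987 lower in place of 2330 and 2168, and Ugt2b5 was -0.18 (adjusted p = 0.19; lowest 7.2e-05 and highest 0.24 among all alternatives, the last with quantile normalization at -0.16) and Ugt2b34 -0.23 (adjusted p = 0.061; lowest 7.1e-06). Relative to that median they stood at -0.41 and -0.47.

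Ugt2b1, known like Ugt2b38 as more abundant in male than in female mouse liver, had 6176, 6986 and 8777 normalized counts in the libraries labelled Trib1-KO, against 10767, 12264 and 17744 in WT. The groups did not overlap and the log2 difference was -0.83 ± 0.14 (limma adjusted p = 7.2e-05). Ugt2b35 had 3301, 3484 and 4316 normalized counts in the libraries labelled Trib1-KO, against 4817, 5319 and 7676 in WT, with a log2 difference of -0.62 ± 0.10 (limma adjusted p = 4.7e-05). Here too every WT library was the higher, and library B2 stood above the other WT libraries.

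Outside the Ugt2b genes, Ugt2a3, an enzyme that in humans conjugates bile acids, fell by 0.62 ± 0.08 on the log2 scale (limma adjusted p = 3.2e-06). It had 3634, 4155 and 4606 normalized counts in the libraries labelled Trib1-KO, against 5574, 6102 and 7474 in WT, with no overlap. Ugt3a1, whose human counterpart uses UDP-N-acetylglucosamine in place of UDP-glucuronic acid, had 964, 1359 and 1672 normalized counts in the libraries labelled Trib1-KO, against 1833, 2481 and 3278 in WT. It fell by 0.88 ± 0.15 on the log2 scale (limma adjusted p = 7.1e-05), again with no overlap.

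Ugt1a1, the enzyme that conjugates bilirubin, was the 1 gene of the 10 that rose. It had 15564, 17340 and 19967 normalized counts in the libraries labelled Trib1-KO, against 11265, 13392 and 15840 in WT. The groups overlapped by the lowest library labelled Trib1-KO and the highest WT library, and all 6 lay above the WT mean (log2 difference 0.40 ± 0.10, limma adjusted p = 0.0035).

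**Figure D2:**
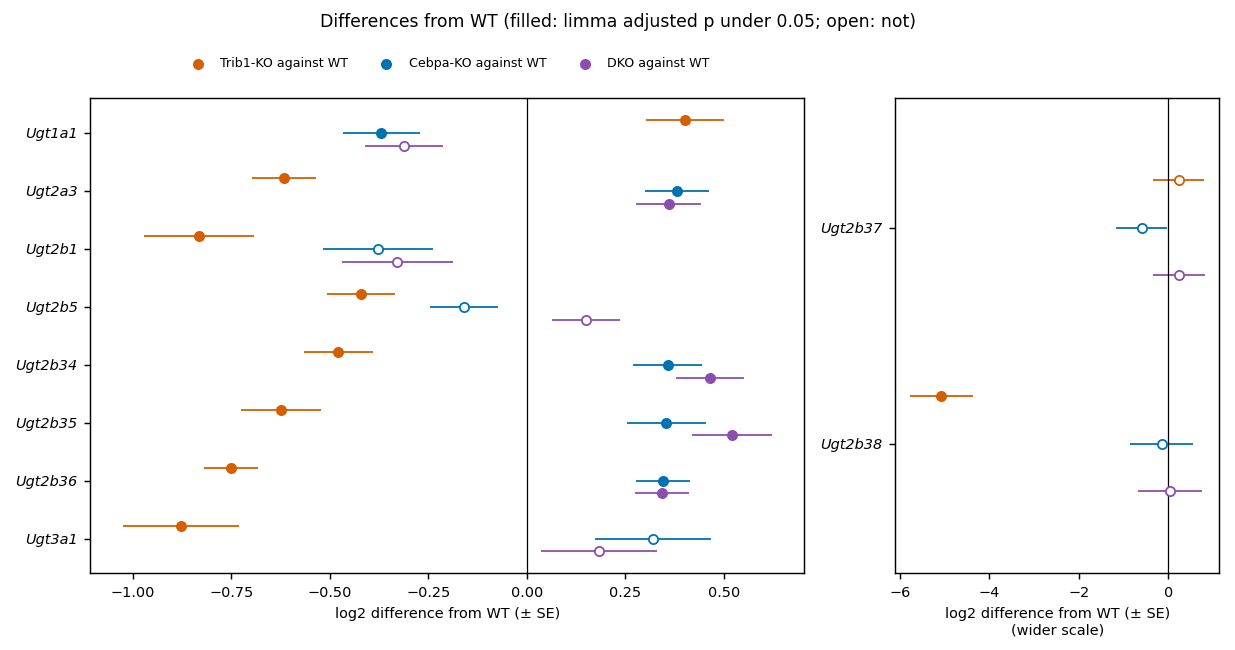
Log2 differences from WT with their standard errors for the 10 genes, Trib1-KO, Cebpa-KO and DKO from top to bottom within a gene; filled points passed the limma test at an adjusted p under 0.05 and the panel of Ugt2b37 and Ugt2b38 has a wider scale. Ugt2a3, Ugt2b34, Ugt2b35 and Ugt2b36 lay below 0 under the Trib1-KO label and above 0 in Cebpa-KO and DKO, whereas Ugt1a1 lay above 0 in the first and below 0 in the others.

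Cebpa-KO was compared with WT, with Trib1 floxed in neither. Of the 10 genes, 4 rose and 1 fell (limma adjusted p under 0.05), where 4.6% of all genes tested were called higher and 5.22% lower, 9.82% in either direction. The median of the 10 was 0.087, against 0.0089 over all genes tested. These comparisons and the one above share their WT libraries, so the values stand side by side and their likeness is not a result. The summed cholangiocyte markers ran from 2831 to 8135.5 normalized counts in Cebpa-KO, against 1468 to 2053 in WT. Of the 8 markers 1 was called higher, Spp1, at 3612 ± 2044 in Cebpa-KO and 1044 ± 120 in WT, and 1 lower, Sox9, at 34.8 ± 10.7 in Cebpa-KO and 132 ± 39.0 in WT (SD, n = 6 each), and 0 of 12 macrophage markers were called by limma, with 2 at an unadjusted p under 0.05. The summed hepatocyte markers ran from 2997460 to 3798530 normalized counts in Cebpa-KO, against 2255220 to 3047710 in WT, with 3 of 11 called higher and 2 lower. Alb, the largest part of that sum, stood at 2295000 ± 336378 in Cebpa-KO and 1451670 ± 277014 in WT. The part of these markers in the result was not tested.

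The 4 that rose were close in size. Ugt2a3 stood at 6892, 8454 and 9165 normalized counts in Cebpa-KO, against 5574, 6102 and 7474 in WT, and rose by 0.38 ± 0.08 on the log2 scale (limma adjusted p = 0.0027). Ugt2b36 stood at 16677, 18147 and 19805 in Cebpa-KO, against 13436, 14106 and 15878 in WT, and rose by 0.35 ± 0.07 (limma adjusted p = 0.0012). Ugt2b36 was the 1 gene of the 10 whose groups did not overlap, where 2.52% of all genes tested lay wholly above WT.

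Ugt2b34 stood at 12555, 13800 and 16896 normalized counts in Cebpa-KO, against 8369, 11136 and 12678 in WT, with a log2 difference of 0.36 ± 0.09 (limma adjusted p = 0.0079). Ugt2b35 stood at 6492, 7027 and 8211 in Cebpa-KO, against 4817, 5319 and 7676 in WT, with 0.35 ± 0.10 (limma adjusted p = 0.025). All 6 Cebpa-KO libraries lay above the WT mean for each of the 4 genes. The Ugt2b35 call is the least firm: it was lost without Cebpa-KO library E1 or E2 or WT library A3, B1 or B3 (largest adjusted p 0.064), in a fit of these 2 groups alone (adjusted p = 0.054) and with the Mup-free scaling (0.31, adjusted p = 0.091).

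Ugt1a1 fell in Cebpa-KO. It stood at 9677, 10329 and 11446 normalized counts in Cebpa-KO, against 11265, 13392 and 15840 in WT, and fell by 0.37 ± 0.10 on the log2 scale (limma adjusted p = 0.016). All 6 Cebpa-KO libraries lay below the WT mean, and 1 of them above the lowest WT library.

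Of the 5 not called, Ugt2b1 stood at 9861 ± 1311 normalized counts in Cebpa-KO and 12909 ± 2580 in WT (SD, n = 6 each), with a log2 difference of -0.38 ± 0.14 (limma adjusted p = 0.093). Ugt3a1 stood at 3077 ± 475 in Cebpa-KO and 2485 ± 529 in WT, at 0.32 ± 0.15 (limma adjusted p = 0.2). Ugt2b5 was at -0.16 ± 0.09 (limma adjusted p = 0.29), and Ugt2b37 at -0.59 ± 0.58 (limma adjusted p = 0.62). Ugt2b38 ran from 103 to 835 normalized counts in Cebpa-KO, a wider spread than the 242 to 600 of WT, with a log2 difference of -0.15 ± 0.71 (limma adjusted p = 0.94).

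The libraries labelled DKO were compared with WT. Of the 10 genes, 4 rose and none fell (limma adjusted p under 0.05), where 2.84% of all genes tested were called higher and 3.25% lower, 6.09% in all. The genes were Ugt2b35 (0.52 ± 0.10, adjusted p = 0.0019), Ugt2b34 (0.46 ± 0.09, adjusted p = 0.0013), Ugt2a3 (0.36 ± 0.08, adjusted p = 0.0075) and Ugt2b36 (0.34 ± 0.07, adjusted p = 0.0023), all log2 differences from limma. These are the 4 genes that were also called higher in Cebpa-KO. Both comparisons use the same WT libraries, so this match is not a separate result. The median of the 10 was 0.21, against 0.0032 over all genes tested. The summed cholangiocyte markers ran from 2720 to 5761 normalized counts in the libraries labelled DKO, against 1468 to 2053 in WT. Of the 8 markers 1 was called higher, Spp1, at 3375 ± 1026 in DKO and 1044 ± 120 in WT, and 2 lower, Sox9, at 38.5 ± 11.5 in DKO and 132 ± 39.0 in WT, and Epcam (SD, n = 6 each). The summed hepatocyte markers ran from 2910990 to 3396100 in DKO, against 2255220 to 3047710 in WT, with 1 of 11 called higher and 2 lower. Alb, the largest part of that sum, stood at 1915000 ± 165741 in DKO and 1451670 ± 277014 in WT. The part of these markers in the result was not tested.

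Ugt2b34 had 13452, 15275 and 16347 normalized counts in the libraries labelled DKO, against 8369, 11136 and 12678 in WT, and Ugt2a3 had 7783, 7962 and 9330, against 5574, 6102 and 7474 in WT. For these 2 genes every library labelled DKO lay above every WT library, as was so for 1.55% of all genes tested. Ugt2b35 had 6792, 8456 and 9116 in the libraries labelled DKO, against 4817, 5319 and 7676 in WT, and Ugt2b36 had 14764, 18802 and 20435, against 13436, 14106 and 15878 in WT. All 6 libraries labelled DKO lay above the WT mean for both genes; the ranges met through WT library B2 for Ugt2b35 and through DKO library H3 for Ugt2b36.

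Ugt1a1 had 9026, 10123 and 13373 normalized counts in the libraries labelled DKO, against 11265, 13392 and 15840 in WT, at -0.31 ± 0.10 on the log2 scale (limma adjusted p = 0.061). All 6 lay below the WT mean, and the value passed without WT library B3 or DKO library G1 or H2, with the Mup-free scaling (-0.35, adjusted p = 0.023) or with genes of a mean of at least 10 alone (adjusted p = 0.048); among all alternatives its adjusted p lay between 0.022 and 0.18. Ugt2b1 was at -0.33 ± 0.14 (limma adjusted p = 0.2), Ugt3a1 at 0.18 ± 0.15 (adjusted p = 0.57) and Ugt2b5 at 0.15 ± 0.09 (adjusted p = 0.39). Ugt2b38 had 196, 1006, 1091, 893, 19.5 and 766 normalized counts in the libraries labelled DKO, so that 4 of the 6 stood above every WT library and 2, G1 and H2, below all of them. Its log2 difference from WT was 0.04 ± 0.71 (limma adjusted p = 0.99), and 0.88 without library H2. Ugt2b37 was lowest in the same library H2 (9.24 normalized counts), against 293.8 in H3, the highest.

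The next comparison asks what goes with floxed Trib1 when Cebpa is deleted. Between the libraries labelled DKO and Cebpa-KO, 0 of the 10 genes were called by limma, where 0.0808% of all genes tested were called higher and 0.121% lower, 0.202% in all, and 1 of the 10, Ugt2b5, had an unadjusted p under 0.05. Ugt2b5 had 20309, 28149 and 32337 normalized counts in the libraries labelled DKO, against 20695, 21469 and 23038 in Cebpa-KO. The DKO libraries spread on both sides of Cebpa-KO, with a log2 difference of 0.31 ± 0.09 (limma adjusted p = 0.17), which passed without DKO library H3 (0.39, adjusted p = 0.025). Among the markers, 0 of 11 for hepatocytes and 0 of 12 for macrophages were called between these groups.

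A p that misses the threshold does not show that the groups are alike, so the 95% intervals, unadjusted for the number of genes, are given. That of Ugt2b5, from 0.13 to 0.49 on the log2 scale, was the 1 interval of the 10 without 0. For Ugt2b36 the interval ran from -0.14 to 0.14 on the log2 scale round a difference of -0.0022 between the libraries labelled DKO and Cebpa-KO. For Ugt2a3 it ran from -0.19 to 0.15, for Ugt1a1 from -0.15 to 0.26, for Ugt2b34 from -0.072 to 0.29 and for Ugt2b35 from -0.042 to 0.38. Ugt2b1 was bounded less tightly, from -0.24 to 0.34, and Ugt3a1 from -0.44 to 0.17. For Ugt2b38 the interval was -1.27 to 1.65, and for Ugt2b37 -0.36 to 2.02, too wide to limit the difference.

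The difference of these differences was then tested as an interaction, that between the libraries labelled DKO and Cebpa-KO minus that between those labelled Trib1-KO and WT. It was above 0 for 8 of the 10 genes and below 0 for none (limma adjusted p under 0.05), where 6.35% of all genes tested were called above 0 and 6.22% below, 12.6% in all. The 8 were the genes that fell in the libraries labelled Trib1-KO. The interaction contains that same difference with its sign reversed, so this match is not a separate result. The largest value was that of Ugt2b38, 5.26 ± 1.00 on the log2 scale (limma adjusted p = 0.00068). Ugt2b36, at 0.75 ± 0.10, had the smallest adjusted p of the 10 (limma adjusted p = 5.6e-06). The same held widely for hepatocyte markers, of which 8 of 11 were called above 0 and 0 below. Their median interaction was 0.92, against 0.74 for the 10 genes. Among 12 macrophage markers, 0 were called above 0 and 6 below. The part of these markers in the result was not tested.

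Ugt2b1 stood at 0.88 ± 0.20 (limma adjusted p = 0.0032), Ugt2b35 at 0.79 ± 0.14 (adjusted p = 0.00041), Ugt3a1 at 0.74 ± 0.21 (adjusted p = 0.018) and Ugt2b5 at 0.73 ± 0.12 (adjusted p = 0.00016). Ugt2a3 stood at 0.60 ± 0.12 (adjusted p = 0.00084) and Ugt2b34 at 0.59 ± 0.12 (adjusted p = 0.0018). Ugt1a1 was at -0.34 ± 0.14 and did not pass (limma adjusted p = 0.11), but it passed at -0.58 with quantile normalization (adjusted p = 0.0055) and with the Mup-free scaling (adjusted p = 0.0028), and without DKO library G1 (adjusted p = 0.045). With the Mup-free scaling, Ugt2b34 (0.35, adjusted p = 0.074) and Ugt3a1 (0.50, adjusted p = 0.085) no longer passed. Ugt2b37 stood at 0.60 ± 0.81 (limma adjusted p = 0.72).

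**Figure D3:**
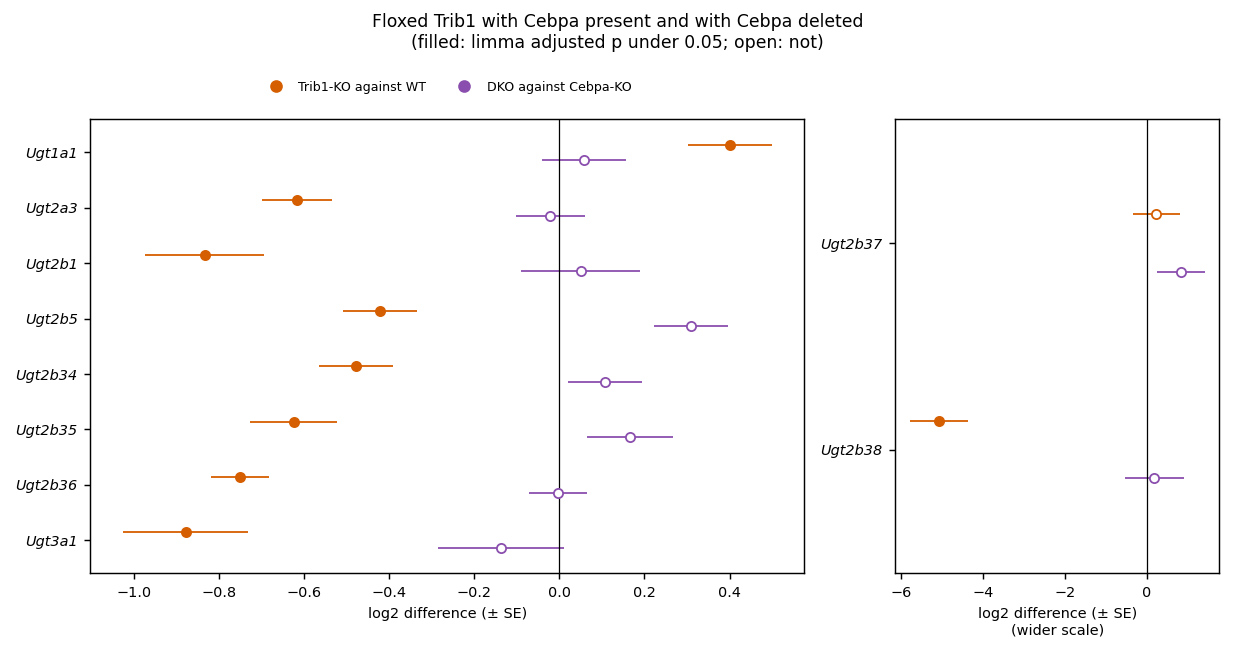
Log2 differences with their standard errors for the 10 genes, those of Trib1-KO against WT above those of DKO against Cebpa-KO within a gene; filled points passed the limma test at an adjusted p under 0.05 and the panel of Ugt2b37 and Ugt2b38 has a wider scale. No point of DKO against Cebpa-KO is filled, and 9 of 10 points of Trib1-KO against WT are.

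Set against each other directly, the libraries labelled DKO and Trib1-KO differed in 9 of the 10 genes, 8 higher and 1 lower in DKO (limma adjusted p under 0.05), where 14.6% of all genes tested were called higher and 15.7% lower, 30.3% in all. For 6 of the 8 every library labelled DKO lay above every one labelled Trib1-KO, as was so for 8.14% of all genes tested, and Ugt1a1 lay wholly below, as did 8.74%. Ugt2b38 differed by 5.11, Ugt2b35 by 1.15, Ugt2b36 by 1.09, Ugt3a1 by 1.06 and Ugt2a3 by 0.98 on the log2 scale. Ugt2b34 was 0.94 higher, Ugt2b5 0.57 and Ugt2b1 0.50, whereas Ugt1a1 was at -0.71 ± 0.10 (limma adjusted p = 2.9e-06). With the Mup-free scaling Ugt2b1 was at 0.22 and no longer passed (adjusted p = 0.25), nor did it with quantile normalization (0.36, adjusted p = 0.051). Hepatocyte markers differed likewise, with 9 of 11 called higher and 1 lower in DKO. Among 12 macrophage markers, 0 were called higher and 6 lower in DKO. The part of these markers in the result was not tested.

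**Figure D4:**
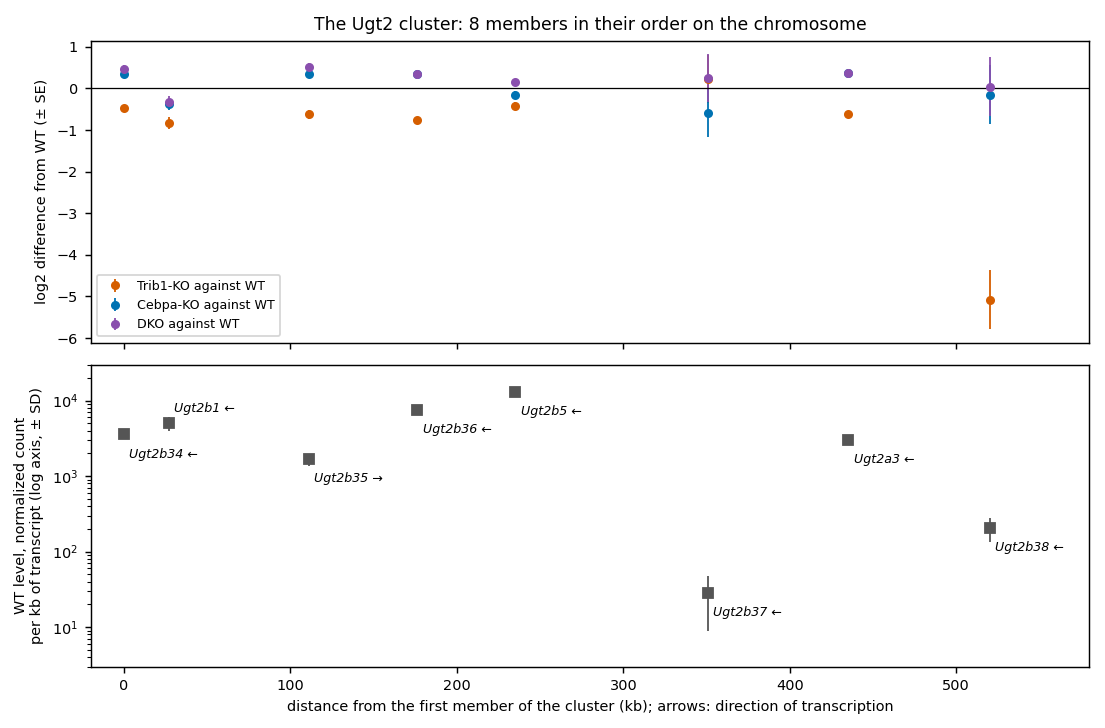
Log2 differences from WT with standard errors (upper panel) and WT levels in normalized counts per kb of transcript with SD on a logarithmic axis (lower panel, n = 6) for the 8 members of the Ugt2 cluster, by distance in kb from the first; arrows give the direction of transcription. Ugt2b38 at the end of the row stood at -5.07 under the Trib1-KO label, and Ugt2b37, its neighbour among the Ugt2b genes, at 0.24.

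The 10 genes were not alike in how much they varied within a group. Over the 4 groups the coefficient of variation was 4.63 to 23.9% for the 8 genes other than Ugt2b37 and Ugt2b38. For Ugt2b38 it was 35.1 to 68.1% and for Ugt2b37 40.2 to 110%. Ugt2b38 and Ugt2b37 are also the lowest of the 10 in level.

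As a family, the 7 Ugt2b genes summed to 45370 ± 2669 normalized counts in the libraries labelled Trib1-KO, 71459 ± 4445 in Cebpa-KO, 79744 ± 10154 in DKO and 68618 ± 5096 in WT (SD, n = 6 each). Every library labelled Trib1-KO (42438 to 49635) lay below every WT library (59730 to 74907). The 9 genes of the Ugt1a locus summed to 28541 ± 1748, 30669 ± 3666, 28622 ± 3475 and 27120 ± 2426 in the same 4 groups, and all the ranges overlapped. Counts are not divided by length in these sums.

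Within the Ugt1a locus the make-up differed. Ugt1a1 was 61.8 ± 2.59% of the locus in the libraries labelled Trib1-KO, 33.9 ± 3.14% in Cebpa-KO, 37.9 ± 4.45% in DKO and 49.4 ± 3.45% in WT. Ugt1a9, whose human counterpart conjugates phenols and drugs, was 3.16 ± 0.55% in the libraries labelled Trib1-KO, 24.6 ± 8.23% in Cebpa-KO, 21.2 ± 1.33% in DKO and 7.32 ± 6.05% in WT. Cebpa-KO and DKO had higher mean shares of Ugt1a9 and lower ones of Ugt1a1 than WT. The shared exons leave 41.5% of the 31-base words of Ugt1a1 and 32.2% of those of Ugt1a9 to that transcript alone, and 0% of those of Ugt1a6a, so the split within the locus rests on the first exons and is uncertain.

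**Figure D5:**
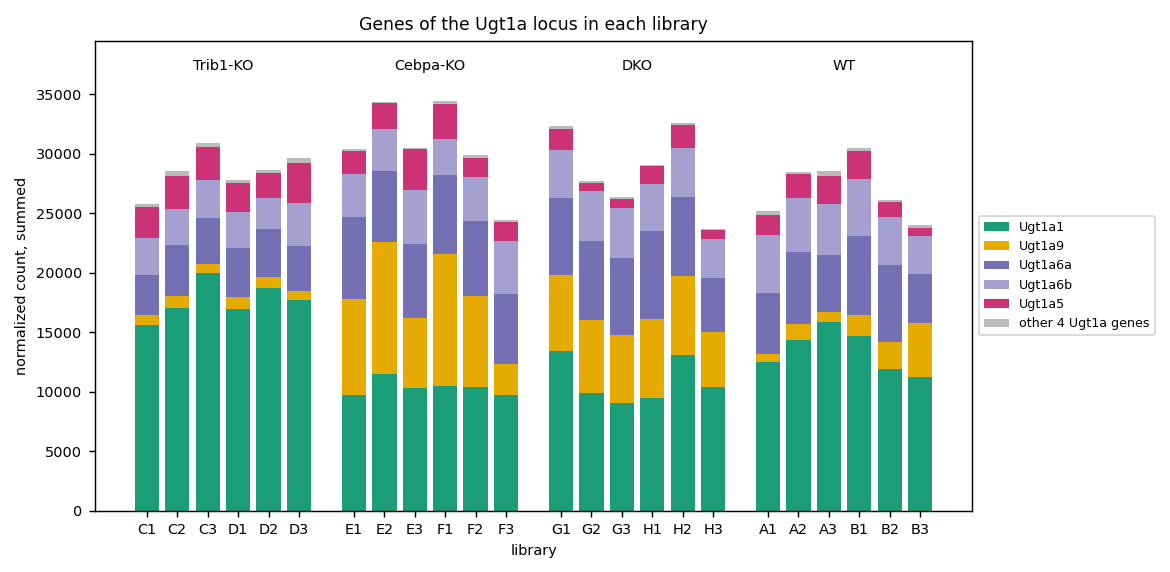
Normalized counts of the genes of the Ugt1a locus stacked for each of the 24 libraries, Trib1-KO, Cebpa-KO, DKO and WT from left to right. Ugt1a1 took 59.6 to 65.5% of the locus under the Trib1-KO label and 30.4 to 39.6% in Cebpa-KO, and WT library B3 had the highest Ugt1a9 of its group.

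Of the other 12 UDP-glucuronosyltransferase genes of the table, 10 could be tested. Ugt2a1 was listed at 0 in every library, and Ugt2a2 had a mean under 1. In the libraries labelled Trib1-KO 4 fell and none rose: Ugt1a6a (-0.48 ± 0.11, limma adjusted p = 0.002), Ugt1a6b (-0.46 ± 0.10, adjusted p = 0.0017), Ugt1a10 (-1.43 ± 0.39, adjusted p = 0.0084) and Ugt3a2 (-0.30 ± 0.08, adjusted p = 0.012). Over all genes tested, 10.9% were called lower there and 11.8% higher. Of the 31-base words, 0% of those of Ugt1a6a, 14.9% of Ugt1a6b and 24.6% of Ugt1a10 belong to that gene alone. The values of these Ugt1a genes are therefore uncertain one by one.

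In Cebpa-KO, Ugt1a9 rose by 2.16 ± 0.34 on the log2 scale (limma adjusted p = 8.6e-05), with 2674, 7890.5 and 11149 normalized counts in Cebpa-KO, against 741, 1553 and 4536 in WT. Ugt1a10 rose (1.37 ± 0.39, adjusted p = 0.024), and Ugt1a7c (-1.13 ± 0.27, adjusted p = 0.0076) and Ugt3a2 (-0.46 ± 0.08, adjusted p = 0.00054) fell. In the libraries labelled DKO, Ugt1a9 rose by 1.94 ± 0.34 (limma adjusted p = 0.00055), and Ugt1a7c (-1.17) and Ugt3a2 (-0.41) fell. Over all genes tested, 4.6% were called higher and 5.22% lower in Cebpa-KO, and 2.84% and 3.25% in DKO. Ugt1a2, Ugt1a8 and Ugt8a were not called in any comparison with WT, nor was Ugt1a5, whose interaction of -1.70 ± 0.42 did pass (limma adjusted p = 0.0068).

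The sugar donor UDP-glucuronic acid is made from glucose through UDP-glucose. Of 8 genes listed for its supply, 2 rose and none fell in the libraries labelled Trib1-KO, against 11.8% and 10.9% of all genes tested. Ugp2, which makes UDP-glucose, had 10102, 10984 and 13743 normalized counts in the libraries labelled Trib1-KO, against 6014, 7001 and 8974 in WT. The groups did not overlap (0.64 ± 0.10, limma adjusted p = 4.4e-05).

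Ugdh, which oxidizes UDP-glucose to UDP-glucuronic acid, was at -0.08 ± 0.09 in the libraries labelled Trib1-KO (limma adjusted p = 0.62) and, at 0.34 ± 0.09, higher in those labelled DKO, where it passed (adjusted p = 0.024). Slc35d1, which carries UDP-glucuronic acid into the endoplasmic reticulum, was not called, at -0.07 ± 0.12 in those labelled Trib1-KO (adjusted p = 0.76). Of 4 genes that act on glucuronides or glucuronic acid, Gusb, the lysosomal β-glucuronidase, rose in the libraries labelled Trib1-KO by 0.53 ± 0.09 (limma adjusted p = 0.00014). Rgn (-1.17 ± 0.12, adjusted p = 9.8e-08), Gulo (-0.50 ± 0.08, adjusted p = 2.3e-05) and Akr1a1 (-0.29 ± 0.07, adjusted p = 0.0024), which lead from glucuronic acid to ascorbate in the mouse, fell. In Cebpa-KO 2 of these 4 genes rose and none fell, and in DKO 1 rose. Over all genes tested, 4.6% were called higher in Cebpa-KO and 2.84% in DKO.

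Of 6 genes listed for haem and bilirubin, 2 rose and 1 fell in the libraries labelled Trib1-KO. The shares of all genes tested were 11.8% and 10.9%. Hmox1, the haem oxygenase that starts the path to bilirubin, rose by 0.69 ± 0.12 (limma adjusted p = 8.4e-05), as did Slco1b2, an uptake carrier of bilirubin and its conjugates, by 0.32 ± 0.10 (adjusted p = 0.026), and Blvrb, a biliverdin reductase, fell by 0.39 ± 0.13 (adjusted p = 0.038). Slco1b2 fell in Cebpa-KO (-0.52, adjusted p = 0.0015) and in the libraries labelled DKO (-0.43, adjusted p = 0.012). Abcc2, which exports bilirubin glucuronides into bile, was at -0.03 ± 0.09 in those labelled Trib1-KO (adjusted p = 0.86) and rose in Cebpa-KO (0.33, adjusted p = 0.011) and DKO (0.35, adjusted p = 0.014).

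Of 11 transporters of glucuronides and other conjugates, 1 rose and 6 fell in the libraries labelled Trib1-KO, 3 rose and 2 fell in Cebpa-KO, and 3 rose and 2 fell in DKO. The shares of all genes tested were 11.8% and 10.9%, 4.6% and 5.22%, and 2.84% and 3.25% in the same order. The uptake carrier Slco1a4 fell by 1.93 ± 0.24 on the log2 scale in the libraries labelled Trib1-KO (limma adjusted p = 1.3e-06), as did Slco1a1 (-1.16, adjusted p = 0.00078). The exporter Abcg2 fell there (-0.61, adjusted p = 0.00014) and rose in Cebpa-KO (0.78, adjusted p = 1.8e-05) and DKO (0.66, adjusted p = 0.00032).

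Of 18 tested transcription factors known to act on these genes in some tissue, 4 rose and 5 fell in the libraries labelled Trib1-KO, Cebpa among those that fell (-1.16 ± 0.16, limma adjusted p = 5.3e-06). Over all genes tested, 11.8% were called higher there and 10.9% lower. Nr1i3, which encodes the xenobiotic receptor CAR, had 1752, 2073 and 2397 normalized counts in the libraries labelled Trib1-KO, against 4352, 5490 and 6470 in WT. The groups were far apart (-1.39 ± 0.15, limma adjusted p = 1.5e-07). Nfe2l2, which encodes NRF2, rose by 0.86 ± 0.10 (adjusted p = 5.3e-07), and Nr1h4, which encodes the bile acid receptor FXR, by 0.45 ± 0.08 (adjusted p = 0.00017).

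Sulfation and glutathione conjugation are the other main routes of conjugation in liver. Of 15 genes listed for them, 4 rose and 6 fell in the libraries labelled Trib1-KO, 4 rose and 3 fell in Cebpa-KO, and 2 rose and 3 fell in DKO. The shares of all genes tested were 11.8% and 10.9%, 4.6% and 5.22%, and 2.84% and 3.25% in the same order. Sult1e1, the oestrogen sulfotransferase, had 236, 334 and 619 normalized counts in the libraries labelled Trib1-KO, against 0, 2.7 and 8.84 in WT. Its log2 difference, which depends on the pseudocount of 1 at such low WT values, was 6.83 ± 0.47 (limma adjusted p = 7.1e-11). Sult1b1 (-1.45, adjusted p = 3.4e-10), Sult2a8 (-0.97, adjusted p = 2.1e-07) and Gsta3 (-0.84, adjusted p = 1.7e-06) fell there.

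For each of the 9 called genes, the gene outside the family with the most similar profile was looked for among 12559 genes with a mean of at least 10, by the root mean square difference of centred log2 values over the 24 libraries. The profile of Ugt1a1 was nearest to that of Rcl1, at 0.138 against a root mean square of 0.345 for Ugt1a1 itself. Ugt2a3 was nearest to Ndfip1 (0.115), Ugt2b36 to Dhrs1 (0.116) and Ugt2b34 to Tgfa (0.131). Ugt2b5 was nearest to Cat, which encodes catalase (0.145), Ugt2b35 to Gclm, a subunit of the first enzyme of glutathione synthesis (0.146), Ugt2b1 to Slc22a30 (0.173) and Ugt3a1 to Il1rap (0.190).

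Ugt2b38 had no close match. The nearest was Adgrf1, an adhesion G protein-coupled receptor, at 1.10 against 2.50 for Ugt2b38 itself. Serpina9 came next and also stood at 1.10. Adgrf1 was picked for its likeness over these same 24 libraries, so the shared pattern given next is not a separate result. Adgrf1 had 0.963, 6.03 and 10.2 normalized counts under the Trib1-KO label, 181, 237 and 448 in Cebpa-KO, 124, 236 and 339 in DKO, and 165, 284 and 441 in WT. For both genes every library labelled Trib1-KO lay below every WT and Cebpa-KO library. Adgrf1 did not overlap DKO either, whereas Ugt2b38 did, through DKO library H2, in which both genes had their lowest DKO value.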

How the data were processed

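Whole-liver RNA from 24 mice was sequenced from stranded poly(A) libraries, per the labels' protocols. The submitters' processing notes name Salmon, DESeq2 and GRCm38.p6 without versions. The deposited values are a signal per gene, taken from their pattern to be estimated counts scaled by the authors with 1 size factor for each library. Of low values, 61.4 to 65.2% were within 0.02 of whole multiples of 1 step, so whole reads were not recovered and no count model was used. An estimated 18612677 to 34271577 reads lay behind a library, and this number limits the precision of low genes. Gene identifiers matched GENCODE for 99.3% of 54432. The test was limma (version 3.58.1, R version 4.3.3), run with a trend in the variance prior after adding 1 and taking log2, for genes with a mean of at least 1, in a single model of 4 group means over 24 libraries, with Benjamini-Hochberg adjustment over all genes tested and a threshold of 0.05. A log2 difference on this scale understates the change of low genes. Tests are 2-sided. The labels give each mouse a cohort, but the column names hold a group, a letter and a number and not the mouse, so no cohort was assigned. A block of the 6 letter and number positions in a group, which would take up a cohort shared by position, was added after seeing the data. No 2 libraries were identical. The script was tested on simulated data. All 10 members were named, with up to 4 called genes from each further list by smallest adjusted p, and every other UDP-glucuronosyltransferase and sugar-supply gene could be named. Some listed genes are counted but not reported here by name. The members and lists were chosen with earlier results of these data known. Alternatives were pseudocounts of 0.5 and 8, no filter, a mean of at least 10, quantile normalization, the Mup-free scaling, only the groups compared, a replicate block and leaving out each library. Sequences came from RefSeq (GRCm38.p6) and transcripts from GENCODE.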

Additional observations from a re-analysis of the deposited data

Results flagged for a closer look

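In 7 of the 40 pairs of a gene and a group, 1 library stood apart from the other 5 by Dixon's test, where chance alone marks about 1 in 20. For Ugt2b38 it was library D2, labelled Trib1-KO, at 26.3 normalized counts. For Ugt2b37 it was DKO library H3 at 293.8 and WT library B2 at 127. WT library B2 was also the highest for Ugt2b35 at 7676. For Ugt2b34 it was Cebpa-KO library E2 at 16896, the highest, and WT library B3 at 8369, the lowest. For Ugt2a3 it was DKO library G3 at 9330.

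For 8 genes the difference between the libraries labelled DKO and Cebpa-KO departed from that between those labelled Trib1-KO and WT by the limma test of the interaction. The log2 values were 5.26 for Ugt2b38, 0.88 for Ugt2b1, 0.79 for Ugt2b35, 0.75 for Ugt2b36, 0.74 for Ugt3a1, 0.73 for Ugt2b5, 0.60 for Ugt2a3 and 0.59 for Ugt2b34.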

How the results depend on the processing

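Of 197 counts of members called under the alternatives, 196 stayed within 1.5 times the count reported. The exception was DKO against Cebpa-KO, with 0 to 1 called over the fits that left out a library, 1 of them without DKO library H3. With the Mup-free scaling 7 of 10 members were called for Trib1-KO against WT (1 higher, 6 lower), 8 for DKO against Trib1-KO and 7 for the interaction. That scaling moved the median of all genes tested by 0.24 for Trib1-KO against WT, -0.29 for DKO against Trib1-KO and -0.24 for the interaction. Of 1970 log2 differences of single members, 1912 kept their direction and side of the threshold, 14 no longer passed, 9 newly passed and 35 changed sign; no value that changed sign passed in either fit. Ugt2b37 in DKO against Trib1-KO turned to -0.0045 with a pseudocount of 0.5 and to -0.27 with the Mup-free scaling, and Ugt2b36 in DKO against Cebpa-KO to 0.0033 with the Mup-free scaling; the cause was not tested. With 1 library left out, values that changed sign ran from -0.0061 to 0.11 (Ugt1a1), -0.073 to 0.0096 (Ugt2a3), -0.050 to 0.16 (Ugt2b1), -0.036 to 0.058 (Ugt2b36) and -0.15 to 1.03 (Ugt2b38) in DKO against Cebpa-KO, from -0.47 to 0.50 (Ugt2b37) in DKO against Trib1-KO, from -0.24 to 0.73 (Ugt2b37) and -0.27 to 0.88 (Ugt2b38) in DKO against WT, and from -0.41 to 0.19 (Ugt2b38) in Cebpa-KO against WT. The replicate block by the number in the column name, which the labels do not tie to mice, gave the counts of the fit without it, 9, 5, 4, 0, 9 and 8, as did the block of letter and number together, chosen after seeing the data. Low values limit Ugt2b37 and, in the libraries labelled Trib1-KO, Ugt2b38.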
